A study of Rattus norvegicus with 4 samples.

Results

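Fibroblast markers outside the collagens were followed through 4 RNA-seq libraries of neonatal rat heart cell cultures. The 10 genes, Pdgfra, Tcf21, Postn, Dcn, Lum, Thy1, Ddr2, Fn1, Vim and S100a4, were taken by symbol from the 15731 genes of the deposited table, and each was listed once. The cultures were ventricular cardiomyocytes of wild type Wistar rats at postnatal day 1 (day 0 in another label field), isolated by trypsin digestion and a plating step on plastic after which the cells still in suspension, mostly cardiomyocytes, were kept. They were transfected with Lipofectamine RNAiMAX and a mimic of human miR-106b-5p, of miR-93-5p or of miR-25-3p, or with the nematode sequence cel-miR-67 as control, and RNA was taken 72 h later. The final concentration is 25 nM in one label field and 25 mM in another. Each mimic had 1 library, so no difference described here has a replicate check, and the number of animals behind a culture is not given in the sources used here.

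Cardiac fibroblasts are the main non-muscle cells that build the matrix of the heart, and some are carried along when cardiomyocytes are prepared from neonatal ventricles. Pdgfra, a receptor for platelet-derived growth factor, and Tcf21, a basic helix-loop-helix transcription factor needed for the fibroblast lineage, mark resident fibroblasts. Postn, Dcn and Lum encode secreted matrix proteins that these cells make in quantity. Thy1, Ddr2, Fn1, Vim and S100a4 are widely used as fibroblast markers too, but Vim is also made by endothelial and blood cells, Fn1 by several cell types in culture, Thy1 by neurons and some lymphocytes, and S100a4 by macrophages. If a mimic changed nothing but the share of fibroblasts, transcripts made by fibroblasts alone would all move by 1 common ratio, and transcripts shared with other cells would move less.

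The 3 miRNAs come from 1 cluster, and their mature sequences are shown because the mimics are grouped by seed, the bases 2 to 8 that pair with target transcripts. The sequences are the rat entries of RefSeq on the GRCr8 build, where the cluster lies on the minus strand of chromosome 12 (chr12:22157103-22157123 for miR-106b-5p, chr12:22156894-22156916 for miR-93-5p and chr12:22156652-22156673 for miR-25-3p). Capitals mark the seed.
rno-miR-106b-5p: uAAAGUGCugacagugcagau
rno-miR-93-5p: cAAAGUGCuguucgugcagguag
rno-miR-25-3p: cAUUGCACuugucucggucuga
miR-106b and miR-93 share the seed AAAGUGC, while that of miR-25 is AUUGCAC.

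Levels are RPKM, read counts that the authors scaled to gene length and to library size. Whole reads behind these values were recovered from their steps. The listed genes held between 15175185 and 18797234 recovered reads in a library, 60.4% to 66.9% of the library size behind the RPKM values. The 10 markers had between 164 and 32234 reads in a library. Ratios are RPKM with a mimic over RPKM under cel-miR-67, given on the log2 scale with a 95% exact (Clopper-Pearson) interval from the reads, which covers counting error only and no difference between cultures. A gene was counted as higher or lower when its RPKM was above 1.0 in both libraries and its ratio passed 1.3-fold, the cutoffs under which the study counted genes. This rule counted more genes than the study reported, in both directions and with every mimic. Where 3 values follow each other without names, they stand for the mimics in the order of the sequences above.

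All 10 markers had an RPKM above 1.0 in all 4 libraries. Vim, the intermediate filament protein of mesenchymal cells, and S100a4, a small calcium-binding protein, made up 82.5% to 85.7% of the markers' summed RPKM in every library. The summed RPKM was 1404 under cel-miR-67, 1158 after miR-106b, 1044 after miR-93 and 930.2 after miR-25. The labelled cell type was checked with 21 cardiomyocyte markers, which summed to between 15571 and 26704 RPKM, or 5.20% to 7.57% of a library's summed RPKM, and all 21 were above 1.0 in the control library. The 10 fibroblast markers made up 0.311% to 0.398%. Per unit of cardiomyocyte marker RPKM, the summed level of the 10 fibroblast markers was 0.0526 in the control library, 0.0487 after miR-106b, 0.0560 after miR-93 and 0.0597 after miR-25. The cardiomyocyte sum, the divisor here, was 26704 in the control library, 23761 after miR-106b, 18643 after miR-93 and 15571 after miR-25. The quotient therefore rose after miR-93 and miR-25 although the fibroblast marker sum fell. In bulk RNA, fewer cells of a type and less RNA per cell cannot be told apart.

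**Figure D1:**
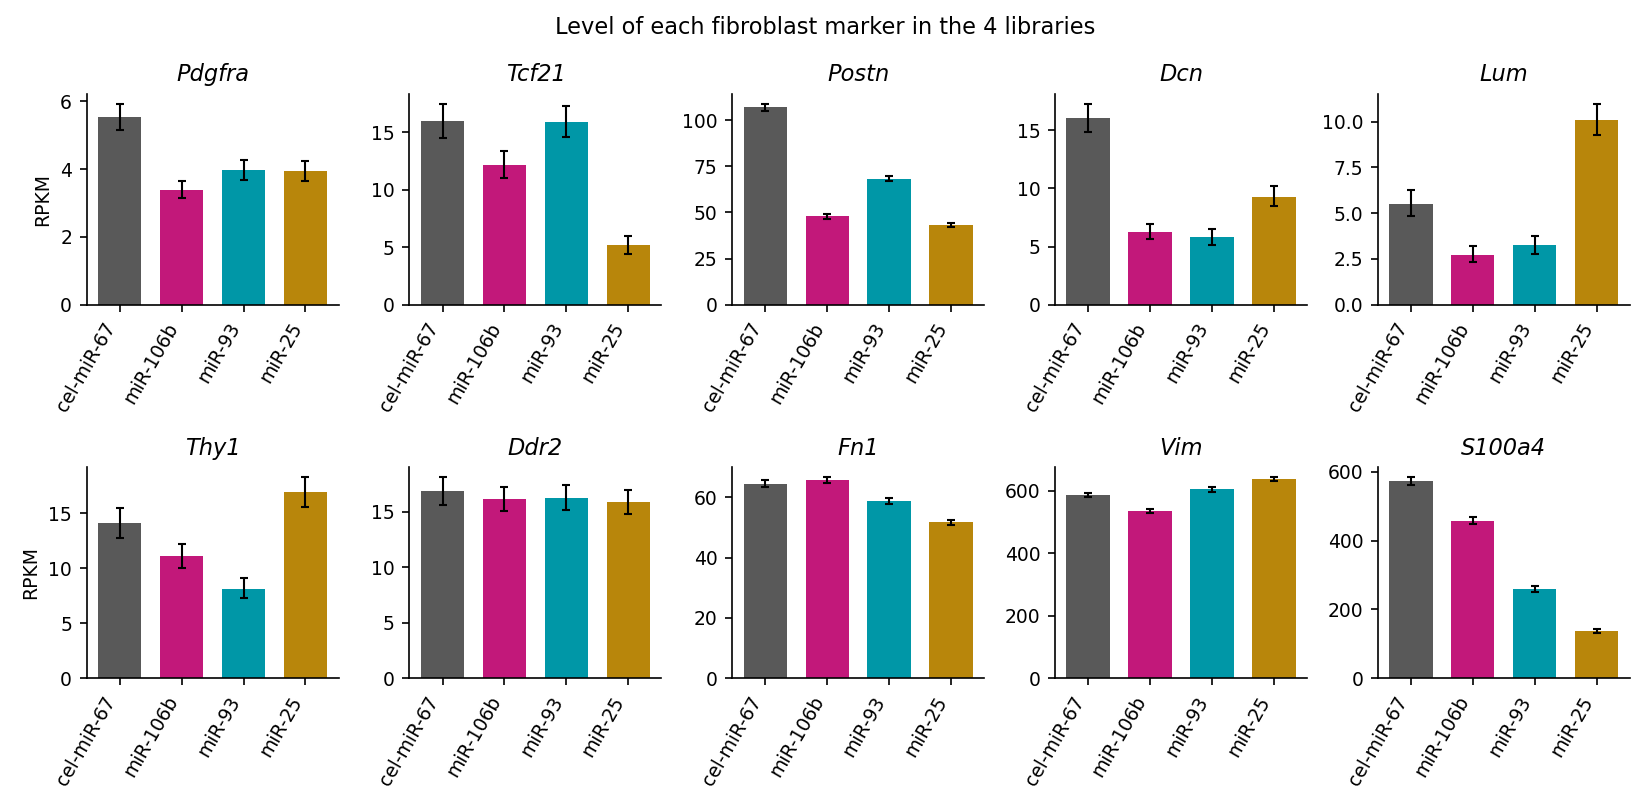
RPKM of the 10 fibroblast markers (y axis, linear from 0, a scale of its own for each gene) in the library of each mimic (x axis, 1 library each). Error bars are 95% exact Poisson intervals of the recovered reads; Dcn and Postn are highest in the control library, Lum is highest after miR-25 at 10.1 and Ddr2 lies between 15.8 and 16.8 throughout.

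After miR-106b, 5 of the 10 markers were lower and none higher by more than 1.3-fold, in a comparison where 12.7% of 11296 tested genes were lower and 11.9% higher. After miR-93, 6 were lower and none higher, against 15.6% lower and 15.1% higher of 11280 genes. After miR-25, 5 were lower and 1 higher, against 22.6% lower and 19.3% higher of 11198 genes. The median log2 ratio of the markers was -0.37 after miR-106b, -0.56 after miR-93 and -0.40 after miR-25, while the median over all genes tested lay between -0.01 and 0.00. Over the markers with an RPKM above 10 in both libraries the median was -0.092 after miR-93 and -0.20 after miR-25. That filter also leaves out markers because they fell. Dcn with every mimic, Thy1 after miR-93 and Tcf21 after miR-25 were above 10 in the control library but not with the mimic. Division by summed RPKM moved the median after miR-25 from -0.40 to -0.17. The 3 comparisons share the control library. Pdgfra, Postn and Dcn were lower with all 3 mimics, Ddr2, Fn1 and Vim passed the cutoff with none, and Lum was the marker that rose.

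Pdgfra (ENSRNOG00000002244) stood at an RPKM of 5.54 under cel-miR-67, 3.39 after miR-106b, 3.97 after miR-93 and 3.95 after miR-25. The control library was the highest, and the miR-93 and miR-25 libraries differed by less than counting error. Its log2 ratio was -0.71 after miR-106b (95% exact interval -0.86 to -0.56), -0.48 after miR-93 (-0.63 to -0.34) and -0.49 after miR-25 (-0.64 to -0.34). When RPKM was divided by the summed RPKM of the library, which takes out the log2 ratios of that sum (-0.03, -0.15 and -0.24), Pdgfra no longer passed the cutoff after miR-93, at -0.34, or after miR-25, at -0.25.

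Tcf21 (ENSRNOG00000016700) followed a different order. The control and miR-93 libraries both had 15.9 RPKM, against 12.1 after miR-106b and 5.16 after miR-25. The control and miR-93 libraries could not be told apart by counting, while the miR-25 library was 3.08-fold below the control. The log2 ratio was -1.62 after miR-25 (95% exact interval -1.89 to -1.37) and 0.00 after miR-93 (-0.19 to 0.18). After miR-106b it was -0.39 (-0.59 to -0.20), just past the cutoff, and at -0.37 with a pseudocount of 1 RPKM or -0.36 after division by summed RPKM it was not.

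Thy1 (ENSRNOG00000006604), a glycolipid-anchored surface protein, was at 14.1 RPKM in the control library, 11.1 after miR-106b, 8.16 after miR-93 and 16.9 after miR-25. The miR-93 library was the lowest and the miR-25 library the highest, and each step between neighbours in this order exceeded counting error. The log2 ratio passed the cutoff after miR-93, at -0.79 (95% exact interval -1.01 to -0.57). It was -0.35 after miR-106b (-0.54 to -0.15) and 0.26 after miR-25 (0.08 to 0.44), and the latter became 0.50 and passed the cutoff after division by summed RPKM. Ddr2 (ENSRNOG00000002881), a receptor tyrosine kinase for fibrillar collagen, was at 16.8, 16.1, 16.3 and 15.8 RPKM in the control library and the 3 mimic libraries. No neighbours in its order of libraries differed beyond counting error, and its log2 ratios ran from -0.09 to -0.05 with intervals that all include 0.

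Dcn and Lum encode decorin and lumican, small leucine-rich proteoglycans that bind collagen fibrils and regulate their assembly. Dcn (ENSRNOG00000004554) was at 16.0 RPKM under cel-miR-67 from 677 reads, 6.28 after miR-106b from 348 reads, 5.80 after miR-93 from 295 reads and 9.30 after miR-25 from 472 reads. Every mimic library was below the control, and those of miR-106b and miR-93 did not differ beyond counting error. Dcn was 2.55-fold lower after miR-106b, 2.76-fold after miR-93 and 1.72-fold after miR-25, and its log2 ratios were -1.35 (95% exact interval -1.54 to -1.16), -1.47 (-1.67 to -1.27) and -0.79 (-0.96 to -0.61). Among all genes tested these stood at percentiles 0.372, 0.993 and 8.63. In the RefSeq annotation of GRCr8, Dcn was the only marker that another annotated gene overlaps, a long non-coding RNA, and whether reads were counted by strand is not given in the sources used here.

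Lum (ENSRNOG00000004610) stood at 5.52 RPKM in the control library from 252 reads, 2.74 after miR-106b from 164 reads, 3.25 after miR-93 from 179 reads and 10.1 after miR-25 from 555 reads. It was highest after miR-25, 3.69-fold above the miR-106b library, and the control library lay between them. The log2 ratio was -1.01 after miR-106b (95% exact interval -1.30 to -0.72), -0.76 after miR-93 (-1.05 to -0.48) and 0.87 after miR-25 (0.66 to 1.09). The rise after miR-25 stood at percentile 95.4 of all genes tested. Both proteoglycans were thus lower after miR-106b and miR-93, and after miR-25 they parted, Dcn falling and Lum rising past the cutoff.

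Postn (ENSRNOG00000012660), the gene of periostin, a secreted protein of the activated fibroblast matrix, had the most reads of the 5 genes more particular to fibroblasts. Its RPKM was 106.8 under cel-miR-67, 47.8 after miR-106b, 68.4 after miR-93 and 43.1 after miR-25, from 10014, 5879, 7719 and 4854 reads. All 3 mimic libraries were below the control, and all neighbours in the order differed beyond counting error. The log2 ratio was -1.16 after miR-106b (95% exact interval -1.21 to -1.11), -0.64 after miR-93 (-0.69 to -0.60) and -1.31 after miR-25 (-1.36 to -1.26). Fn1 (ENSRNOG00000014288), the gene of fibronectin, was at 64.6, 65.8, 58.8 and 51.7 RPKM in the control library and the 3 mimic libraries. Its log2 ratios were 0.03, -0.13 and -0.32 (-0.35 to -0.29), short of the cutoff even after miR-25.

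Vim (ENSRNOG00000018087) reached 586.7 RPKM in the control library, 535.4 after miR-106b, 604.2 after miR-93 and 636.9 after miR-25, and its log2 ratios were -0.13, 0.04 and 0.12. With at least 24704 reads in each library these steps exceeded counting error, but none reached 1.3-fold. S100a4 (ENSRNOG00000011821) was at 572.1, 457.6, 259.2 and 137.2 RPKM in the same order of libraries, and so had the widest range of the 10 markers, 4.17-fold. Its log2 ratio was -0.32 after miR-106b (95% exact interval -0.37 to -0.28), -1.14 after miR-93 (-1.19 to -1.09) and -2.06 after miR-25 (-2.13 to -2.00). The last of these stood at percentile 0.232 of all genes tested. In the control library Vim and S100a4 were nearly level, and after miR-25 Vim was 4.64 times as high as S100a4.

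**Figure D2:**
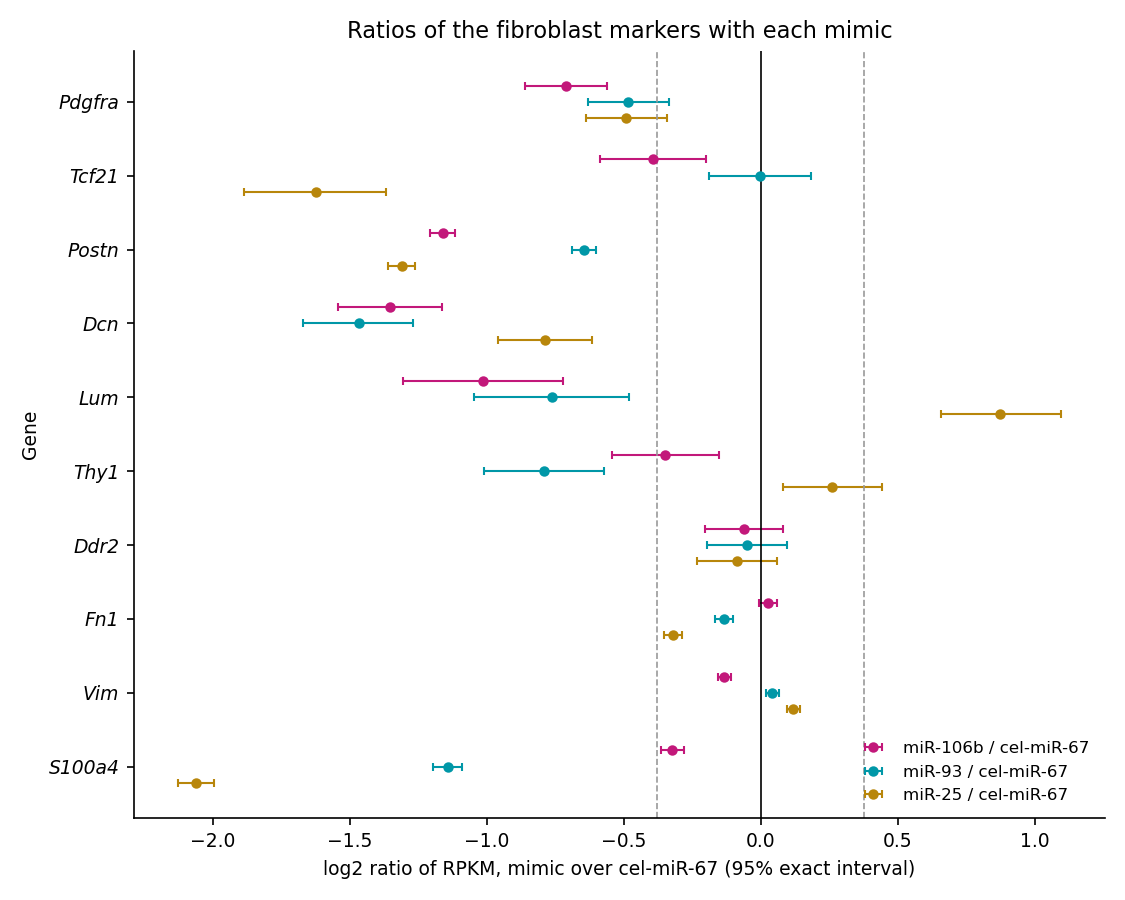
Log2 ratio of RPKM, mimic over cel-miR-67 (x axis), for the 10 fibroblast markers (y axis), with 95% exact intervals as bars and the 1.3-fold cutoffs as dashed lines. Ratios after miR-25 reach from -2.06 for S100a4 to 0.87 for Lum, while those of Ddr2, Fn1 and Vim stay between the dashed lines with every mimic.

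To see whether the markers moved together, their ratios were set against 1 common ratio, that of the summed RPKM of the 10 genes. Vim and S100a4, which other cells also make, held 82.5% to 85.7% of this sum, so the common ratio mostly follows them. This common log2 ratio was -0.28 after miR-106b, -0.43 after miR-93 and -0.59 after miR-25, and the intervals of 8, 9 and 9 of the 10 markers did not include it. Of the 45 pairs of markers, 32, 34 and 42 had intervals that did not touch. The share among pairs of all tested genes was not computed, and intervals narrow with more reads. Highest and lowest marker lay 2.60-fold apart after miR-106b (Fn1 and Dcn), 2.85-fold after miR-93 (Vim and Dcn) and 7.64-fold after miR-25 (Lum and S100a4). These distances do not depend on how the libraries are scaled. The SD of the log2 ratio across the 10 markers was 0.49, 0.51 and 0.91 with the 3 mimics, and across all genes tested it was 0.39, 0.47 and 0.57. The markers were therefore spread at least as widely as the tested genes as a whole, and they did not share 1 ratio within counting error with any mimic.

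The same was asked of the 5 genes more particular to fibroblasts, Pdgfra, Tcf21, Postn, Dcn and Lum. All 5 were lower after miR-106b, with a median log2 ratio of -1.01 and 1.95-fold between Tcf21 and Dcn. After miR-93 they had a median of -0.64, and 4 of 5 were lower. Tcf21 and Dcn were then 2.76-fold apart. After miR-25, 4 of 5 were lower and Lum was higher, with a median of -0.79 and 5.65-fold between Lum and Tcf21. Of all genes tested, 12.7%, 15.6% and 22.6% were lower with the 3 mimics in turn. Division by summed RPKM took Tcf21 after miR-106b and Pdgfra after miR-93 and miR-25 out of these counts. The intervals of 4, 2 and 5 of the 5 genes did not include the ratio of their summed RPKM, in which Postn weighed most. Their summed RPKM was 149.8 in the control library, 72.3 after miR-106b, 97.3 after miR-93 and 71.6 after miR-25. Per unit of cardiomyocyte marker RPKM this sum was 0.00561, 0.00304, 0.00522 and 0.0046 in the same libraries, lowest after miR-106b. The cardiomyocyte sum that divides it was also lower with each mimic, at log2 ratios of -0.17, -0.52 and -0.78. A lower divisor raises the quotient, most so after miR-25. The 5 other markers, Thy1, Ddr2, Fn1, Vim and S100a4, had medians near 0, at -0.13, -0.13 and -0.09, and 0, 2 and 1 of them were lower past the cutoff. S100a4 was the exception among these 5 after miR-93 and miR-25, and Thy1 after miR-93. No source outside fibroblasts was named above for Ddr2, and a difference between these 5 and the 5 more particular genes was not tested.

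Ratios between 2 markers within a library need no control library and no scaling. Tcf21 was 2.89 times the level of Lum under cel-miR-67, 4.43 after miR-106b, 4.88 after miR-93 and 0.511 after miR-25, a 9.55-fold range. Tcf21 over Dcn was 0.993, 1.93, 2.74 and 0.555 in the same libraries. Pdgfra over Postn varied least among the 10 pairs of the 5 more particular genes, between 0.0519 and 0.0917, a 1.77-fold range. In 8 of these 10 pairs the ratio varied by more than 2-fold over the 4 libraries, and in 36 of all 45 pairs of markers. The share among pairs of all tested genes was not computed, so these counts describe the markers alone. Ddr2 and Vim kept the steadiest ratio of all pairs, within 1.21-fold.

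**Figure D3:**
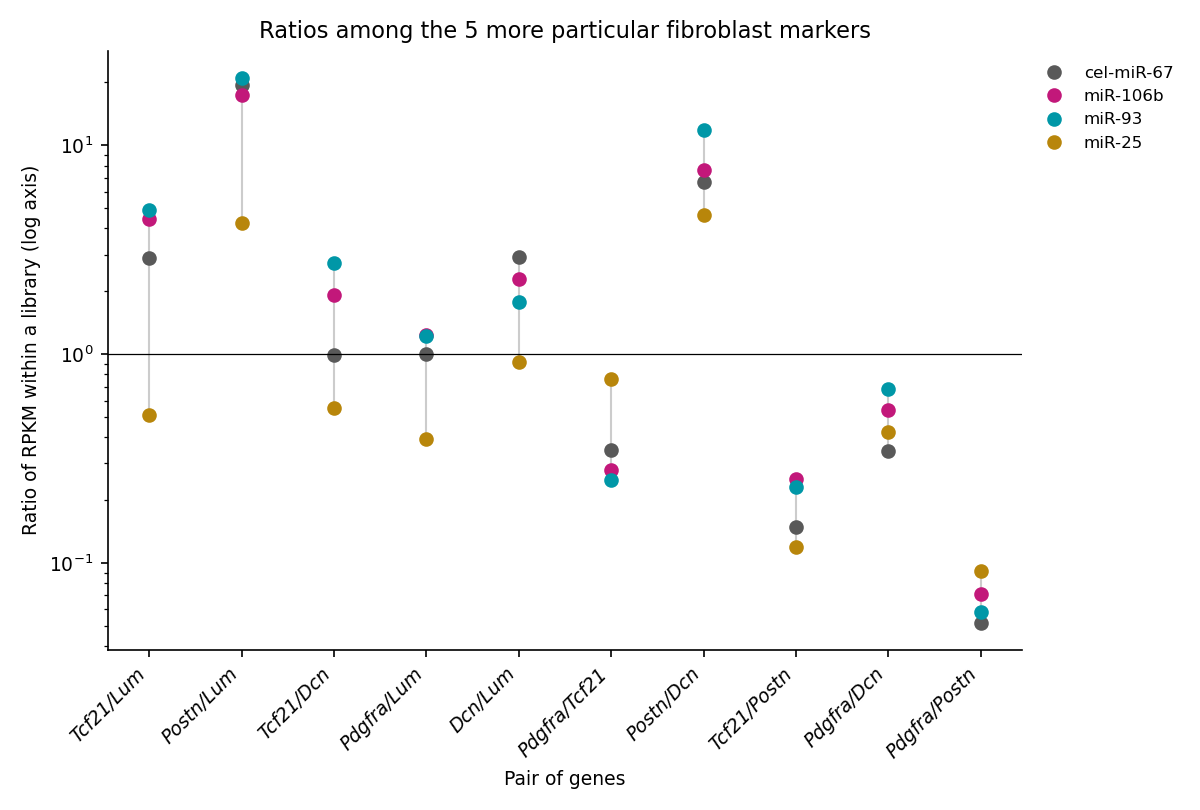
Ratio of RPKM between 2 genes within a library (y axis, log scale) for the 10 pairs of Pdgfra, Tcf21, Postn, Dcn and Lum (x axis), with 1 point for each of the 4 libraries. The miR-25 library lies apart from the others in the pairs with Lum, as for Tcf21/Lum at 0.511 against 2.89 to 4.88 in the other libraries.

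miR-93 and miR-106b share a seed, and their libraries can be compared without the control. Of the 10 markers, 2 were higher and 2 lower after miR-93 than after miR-106b by more than 1.3-fold, where 7.3% of 11391 genes were higher and 8.21% lower, 15.5% in either direction. Postn was higher, with a log2 ratio of 0.52 (95% exact interval 0.47 to 0.57), and so was Tcf21, at 0.39 (0.20 to 0.57). S100a4 was lower after miR-93, at -0.82 (-0.87 to -0.77), as was Thy1, at -0.44 (-0.66 to -0.23). Dcn, at -0.12 (-0.34 to 0.11), and Lum, at 0.25 (-0.06 to 0.56), had no difference between these libraries that was detectable at this depth. Tcf21 did not pass the cutoff with a pseudocount of 1 RPKM, nor Thy1 after division by summed RPKM.

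Beside the markers, a list of 32 other genes that fibroblasts express was looked up, of which 31 were listed once. Testing needed an RPKM above 1.0 in both libraries, so genes that fell below or rose above it with a mimic were not counted. Over all genes tested, 12.7%, 15.6% and 22.6% were lower and 11.9%, 15.1% and 19.3% higher with the 3 mimics in turn. These shares also stand beside the counts of the lists that follow. After miR-106b, 12 of the 24 tested were lower and 1 higher, with a median log2 ratio of -0.38. After miR-93, 10 of 25 were lower and 1 higher, with a median of -0.21, and after miR-25, 12 of 25 were lower and 5 higher, with a median of -0.29. Sparc, a collagen-binding matricellular protein and the most abundant of them at 808.5 RPKM in the control library, was at -0.44, -0.35 and -0.23 after the 3 mimics. Serpinf1, a secreted serpin, was the lowest after miR-106b, at -1.61 (95% exact interval -1.79 to -1.43), and after miR-93, at -1.76 (-1.96 to -1.57). Mgp, matrix Gla protein, was at -0.57, -1.21 and -1.58 with the 3 mimics. After miR-25, Eln, the gene of elastin, was the lowest at -3.47 (-3.61 to -3.33), and Lox, which crosslinks collagen and elastin, the highest at 1.20 (1.12 to 1.28). Fstl1 and Ccdc80, both secreted proteins, did not pass the cutoff except Ccdc80 after miR-25, at -0.54. The highest genes with the other mimics were Hic1, a transcriptional repressor, at 0.46 after miR-106b (-0.28 to 1.22), and Efemp1, a fibulin, at 0.48 after miR-93 (0.17 to 0.80).

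The fibrillar collagens are the best known fibroblast products. All 7 were lower after miR-25, from -1.87 for Col1a2 to -0.64 for Col11a1, with a median log2 ratio of -0.79 and an SD of 0.46, beside 0.91 for the 10 markers, a difference in spread that was not tested. After miR-106b and miR-93 they had medians of -0.22 and -0.10, and 2 of 7 were lower and 1 higher with each. Col3a1 was at -0.34, -0.06 and -1.33 after the 3 mimics, and Col5a2 at -0.70, -0.70 and -0.79. Col3a1 and Col1a2 were lower after miR-25 as Tcf21 and Postn were, while Lum was higher. Of the other proteoglycans of the family of Dcn and Lum, 6 of 10 genes were listed once and 2 were tested. Bgn, the gene of biglycan, was at -0.14, -0.16 and -0.89, and Fmod, the gene of fibromodulin, at -0.09, 0.84 and 0.03 with the 3 mimics. Prelp and Chad fell below the RPKM cutoff in at least 1 library of each comparison. Prelp was above it only in the control library, at 2.27 RPKM, against 0.806, 0.645 and 0.545 with the 3 mimics. Chad was above it only after miR-93, at 1.13.

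Markers of other cells moved as well, and their part in the values above was not tested. Of 21 cardiomyocyte markers, 1 was higher and 5 lower after miR-106b, 4 and 7 after miR-93, and 2 and 19 after miR-25, and their median log2 ratios were -0.05, -0.22 and -0.85. Tnni3, the cardiac troponin I gene, was at 0.63, 0.49 and -4.47, and Myl2, a ventricular myosin light chain, at 0.08, -0.45 and -1.07. After miR-25 the fibroblast markers and the cardiomyocyte markers therefore both had medians below 0. Of 8 contractile genes of smooth muscle and myofibroblasts, 4 were higher and 2 lower after miR-25, with Acta2 at 1.43, Tagln at 1.45 and Cnn1 at 1.65. Acta2 and Tagln were at -0.36 and -0.18 after miR-106b and at -0.24 and -0.30 after miR-93, short of the cutoff. Cnn1 was higher after miR-106b, at 0.53, and lower after miR-93, at -0.96. Synpo2 was lower with all 3 mimics, at -0.96, -1.67 and -0.48, and Myl9 was lower after miR-93, at -0.62. Their list was lower for 2 and 4 genes after miR-106b and miR-93, and higher for 1 and 0, and its summed RPKM ran from 1300 after miR-93 to 2954 after miR-25.

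Epicardial markers, from the layer that gives rise to cardiac fibroblasts, were looked up as well. After miR-93, 5 of 8 were higher and none lower, with a median log2 ratio of 0.51, and after miR-25 4 were higher and 1 lower, with a median of 0.55. After miR-106b 2 of 7 were higher, with a median of -0.01. Upk3b, a mesothelial uroplakin, was at 0.40, 0.70 and 1.74, and Aldh1a2, which makes retinoic acid, at -0.08, 0.76 and -1.19 with the 3 mimics. The summed RPKM of this list was 32.1 in the control library and 34.9, 42.9 and 46.5 after the 3 mimics. None of its genes was at 0.

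Pericyte, endothelial, macrophage and Schwann cell markers were scarce. The 7 pericyte markers summed to between 40.9 and 46.9 RPKM, the 14 macrophage markers to between 20.3 and 33.3, the 12 endothelial markers to between 21.9 and 28.7 and the 4 Schwann and neural markers to between 1.08 and 2.04. Of the endothelial markers, 6 were below 1.0 RPKM in every library, and 1 of these, Cldn5, was listed at 0 in 2 libraries. Macrophage markers had medians of 0.19 after miR-106b and 0.33 after miR-93 over 9 genes, with 3 higher and 1 lower each, and of -0.52 after miR-25 over 7 genes, with 0 higher and 4 lower. The summed macrophage RPKM was 31.2 in the control library, 30.5 after miR-106b, 33.3 after miR-93 and 20.3 after miR-25. Both this sum and S100a4, which macrophages also make, were lowest after miR-25, and after miR-93 S100a4 was 2.21-fold lower. Lyz2, the macrophage marker highest in the control library, was at -0.08 after miR-25 (-0.37 to 0.21). A link between these markers and S100a4 was not tested. Over the pericyte genes tested, medians were -0.30, 0.24 and -0.02 with the 3 mimics, with 0, 0 and 2 genes higher and 1, 1 and 2 lower. The endothelial genes tested had medians of -0.20, -0.18 and -0.40, with 1 of 5 higher in each comparison and 2, 2 and 3 lower.

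**Figure D4:**
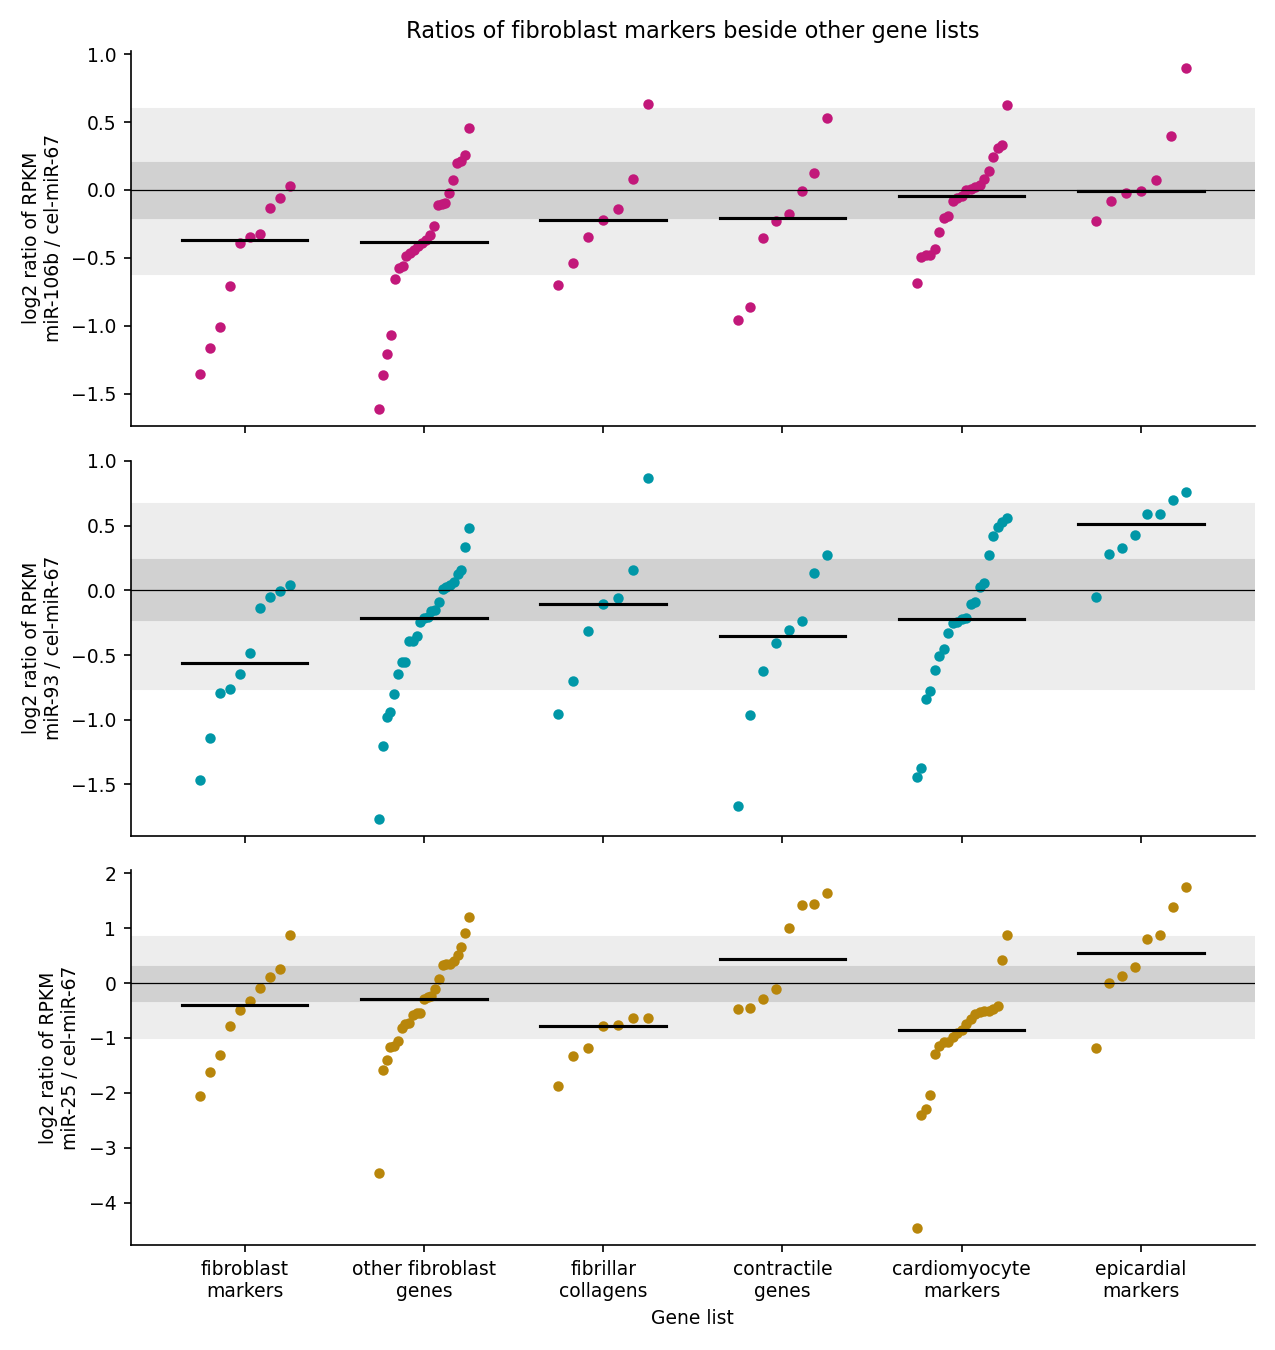
Log2 ratio of RPKM over cel-miR-67 (y axis, a scale of its own for each mimic) for the tested genes of 6 lists (x axis), 1 point a gene, with the list's median as a black bar. Grey bands hold the middle 50% and 90% of all genes tested; after miR-25 the collagens all lie below 0, while the fibroblast markers reach from -2.06 to 0.87.

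For each marker the 2 genes with the most similar profile over the 4 libraries were found among 4045 genes with an RPKM above 10 in all of them, by the largest difference in log2 RPKM after centring each gene on its mean. Pdgfra was nearest to Cpe and Rcn3, within 0.05, and Thy1 to Furin at 0.06 and Rasl11b at 0.07. The flat profiles of Ddr2, Fn1 and Vim had neighbours within 0.03, such as Sp3, Psmc2 and Cyba. Tcf21 was nearest to Ugp2 and Vnn1, at 0.13, and Lum to Mob1a at 0.11 and Ankfy1 at 0.22. Postn, Dcn and S100a4 had no gene within 0.2, and their nearest were Nov at 0.21, Antxr2 at 0.28 and Hipk3 at 0.27. Of the 10 markers, 5 were themselves among these genes (Postn, Ddr2, Fn1, Vim and S100a4), and none of the 5 was a nearest gene of another marker. These are descriptions over 4 libraries.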

How the data were processed

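Total RNA of the 4 cultures was sequenced with 1 library per mimic. Per the labels and the methods, the authors trimmed the reads with Cutadapt, aligned them to Rnor_6.0 with STAR 2.7, rounded the gene counts and deposited RPKM values computed with edgeR's rpkm function. The program that counted reads is not given in the sources used here. The 4 files of single samples held the same values as the table of all samples. RPKM values are not counts, so no count test was run and no p-value is given. Reads were recovered for 15731 of 15731 genes as the smallest whole numbers that give a gene's ratios between libraries, with library sizes chosen so that gene lengths came out whole, and this was tested on simulated data. Exact intervals used these reads. The methods state a much lower depth per sample than these reads add up to, and the difference was not resolved. If the true counts were lower, the intervals would be wider, but for 9 of the 10 markers no smaller whole numbers give the recovered ratios. RPKM is relative to library size, and the share of that size held by listed genes differed between libraries, so division by summed RPKM was run as an alternative.

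The named genes were the 10 markers and genes taken from, in each further list, the 4 with the highest control RPKM and the highest and lowest ratio with each mimic, not all of which are named. Cldn5 was named after its values were seen. Genes of symbols listed more than once (176 symbols) were left out of lists. The ratios of 1 list, the Schwann and neural markers, are not reported here. The members and lists were chosen with earlier results of these data known. The RPKM minimum was 1, under which the study counted genes, and its methods also name 2, which was run as an alternative and changed no count of markers. Alternatives were RPKM cutoffs, fold cutoffs, pseudocounts, scalings, subsets of the markers and calls limited to intervals that leave out 1. Python 3.11.15, numpy 2.4.6, pandas 2.3.3, scipy 1.17.1 and matplotlib 3.10.9 were used.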

Additional observations from a re-analysis of the deposited data

How the results depend on the processing

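No paired analysis was possible because each mimic had 1 library, and for the same reason no replicate could be left out. None of the summary values or single ratios past the cutoff changed direction under the alternatives. With a 2-fold cutoff the markers past it numbered 3, 2 and 3 after the 3 mimics in turn and 0 between miR-93 and miR-106b, where a 1.5-fold cutoff left 1. With an RPKM above 10 in both libraries, 7, 6 and 6 markers were tested and 2, 2 and 2 passed the cutoff. The medians were then -0.092 and -0.20 and the spreads 1.18 and 2.32 (log2, highest minus lowest) after miR-93 and miR-25. This filter left out markers that fell below 10 with a mimic, Dcn with all 3, Thy1 after miR-93 and Tcf21 after miR-25. Over the 5 genes more particular to fibroblasts, the medians were -1.01 after miR-106b and -0.79 after miR-25, the spreads 0.96 and 2.50, and 2 genes passed between miR-93 and miR-106b. Division by summed RPKM moved the median after miR-25 to -0.17. The other 122 recomputed summary values stayed within 1.5 times the count or, for medians and spreads, within the counting error taken as the limit. Depth limited the ratios of Lum, with 164 reads at the lowest, and of Tcf21, with 172, and the spread between cultures was not measured.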
